A study of Mus musculus with 16 samples.

Results

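The genes described here encode the subunits of voltage-gated sodium and calcium channels in mouse brain. They were chosen by name alone: every protein-coding gene of the deposited expression table whose symbol starts with Cacna, Cacnb or Cacng, or consists of Scn, digits and the letter a or b. The rule found 40 genes among 33289 in the table, and 32 of them were expressed highly enough to be tested, against 17349 genes tested in all. The 40 genes comprise 10 sodium channel alpha subunits, 4 sodium channel beta subunits, 10 pore-forming calcium channel alpha1 subunits (7 high-voltage-activated and 3 low-voltage-activated), 4 alpha2delta subunits, 4 calcium channel beta subunits and 8 gamma subunits.

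RNA was sequenced from hemi-brains of C57BL/6J mice aged 3 to 4 months, which had been perfused with PBS and were studied 8 h after an injection. The 4 groups, each with 4 libraries, were mice labelled Lcn2-/- given LPS (bacterial lipopolysaccharide, which triggers systemic inflammation), wild-type mice given LPS, mice labelled Lcn2-/- given saline, and wild-type mice given saline. The product of Lcn2, lipocalin-2, is released during inflammation and sequesters the iron carriers of bacteria. The design sets 2 questions for each channel gene: how its transcript level differed after LPS in each genotype, and whether that difference depended on the genotype label.

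Voltage-gated sodium channels open on depolarization and carry the rising phase of the action potential; their alpha subunit forms the pore, and beta subunits, which are also adhesion molecules, alter gating and surface expression. Voltage-gated calcium channels couple depolarization to transmitter release, dendritic calcium entry and gene transcription, with an alpha1 pore accompanied by a cytoplasmic beta subunit and an extracellular alpha2delta subunit. Most gamma family members act in the brain as transmembrane AMPA receptor regulatory proteins (TARPs), which traffic and tune AMPA-type glutamate receptors, rather than as calcium channel subunits.

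The values are log2 RPKM (reads per kilobase of gene scaled to library size) after the authors' conditional quantile normalization, printed below as RPKM unless a log2 difference is named. No read counts were analysed here, and sequencing depth is unknown. Lcn2 itself had 34.1 to 40.2 RPKM in LPS libraries labelled Lcn2-/- and 66.7 to 82.7 RPKM in wild-type LPS libraries, against 0.132 to 0.351 RPKM in saline libraries labelled Lcn2-/- and 0.065 to 0.204 RPKM in wild-type saline libraries. The transcript was thus still present under the Lcn2-/- label, and a value per gene does not show which exons were deleted, so the genotype is called by its label throughout. Saline replicate 4 labelled Lcn2-/- stood apart, with 17112 genes at 0.5 RPKM or more against 16372 to 16497 in the other libraries. All 10 pan-neuronal marker genes (such as Snap25, Map2 and Syt1) were at 0.5 RPKM or more in every group. Their summed level was 1128 to 1150 RPKM in LPS libraries labelled Lcn2-/- and 1135 to 1152 RPKM in wild-type LPS libraries, against 1066 to 1123 RPKM in saline libraries labelled Lcn2-/- and 1105 to 1134 RPKM in wild-type saline libraries.

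Among the genes described here, Cacng7, a type II TARP, had the highest mean level over the 16 libraries, at 48.7 RPKM. It was followed by Scn2b at 38.0 RPKM, by the calcium channel beta subunit Cacnb3 at 36.2 RPKM and by Scn4b at 29.5 RPKM. Among the pore-forming sodium channel genes, Scn8a, which lines the distal axon initial segment and nodes of Ranvier, averaged 26.7 RPKM, Scn2a 20.1 RPKM and Scn1a 15.7 RPKM. Together these 3 genes made up most of the sodium channel alpha signal, with mean shares in LPS libraries labelled Lcn2-/- of 39.6%, 29.9% and 23.7%. The embryonic type Scn3a held 3.98% there. The 8 genes that did not reach 0.5 RPKM in at least 3 libraries, the condition for testing, were Scn4a and Cacna1s of skeletal muscle, Scn10a and Scn11a of sensory neurons, Cacna1f of the retina, and Cacna2d4, Cacng1 and Cacng6. Of 6 skeletal muscle markers 4 were also below it (Ckm, Myh4, Tnnt3 and Actn3), as were 5 of 6 pituitary and retina markers (among them Gh, Prl, Pde6b and Sag).

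**Figure D1:**
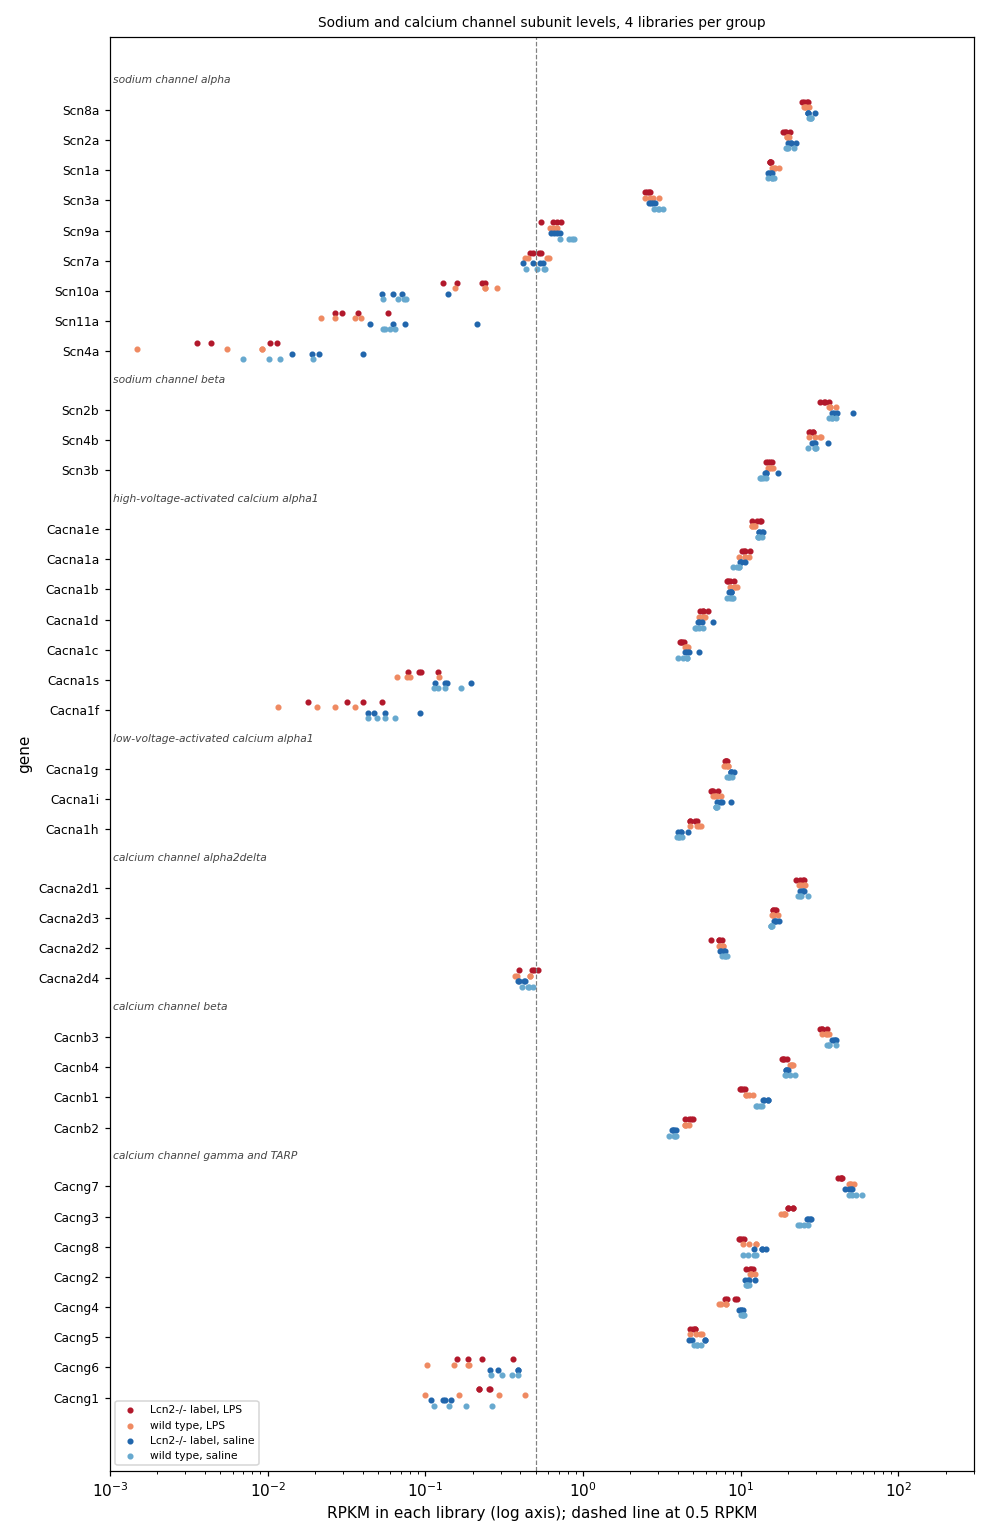
RPKM (log axis) of 38 of the channel genes in each library, grouped by subunit role and ordered by mean level, with 4 points per group. Cacng7 lies highest at a mean of 48.7 RPKM, and the 8 genes with points mostly left of the dashed line at 0.5 RPKM were not tested.

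LPS changed single channel genes by modest amounts and in both directions, and none of the 32 tested channel genes had a 2-fold difference in any of the 5 comparisons. In libraries labelled Lcn2-/-, 14 of the 32 genes passed the limma test at an adjusted p under 0.05, 2 of them higher and 12 lower after LPS. That is 43.8% of the channel genes, near the 48.3% of all genes tested that passed. In wild-type libraries 9 of the 32 passed, 4 higher and 5 lower, which is 28.1% against 25.3% of all genes tested. The channel genes therefore passed about as often as genes in general. By direction, 20.7% of all genes tested rose and 27.7% fell under the Lcn2-/- label, against 11.4% and 13.9% in wild type. LPS and saline values did not overlap for 11 of the 32 genes under the Lcn2-/- label, where 42.4% of all genes tested did not overlap, and for 9 of the 32 in wild type, where 32.4% did not. The median log2 difference over the 32 genes was -0.089 under the Lcn2-/- label, beside -0.028 for all genes tested, and -0.002 in wild type, beside -0.025. Their median absolute difference was 0.095 under the Lcn2-/- label and 0.079 in wild type, below the 0.199 and 0.120 of all genes tested. The channel genes had a higher median level than the tested genes with annotation, at a log2 RPKM of 3.52 against 2.13. Their median SE was smaller than that of all genes tested, at 0.048 against 0.077 in both genotypes. The part of level and SE in the smaller differences was not tested.

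The same 5 genes passed in both genotypes, each in the same direction: Cacna1h and Cacnb2 were higher after LPS, and Cacnb1, Cacng3 and Cacng4 were lower. These are 5 of the 14 genes called under the Lcn2-/- label and 5 of the 9 called in wild type, and 14 of the 32 genes passed in neither. All of these 5 genes kept their calls in both genotypes under every alternative processing and with each library left out in turn. In wild type the other 4 calls were fragile: without LPS replicate 1, LPS replicate 4 or saline replicate 3 only 5 genes passed. Under the Lcn2-/- label 12 genes passed without saline replicate 4, since Scn2a and Scn8a no longer did. In this bulk tissue, fewer cells of a type and less RNA per cell cannot be told apart. Markers of microglia and of endothelial cells were lower after LPS in both genotypes. Of 6 microglial markers, 6 passed as lower under the Lcn2-/- label and 5 in wild type. Their summed level was 47.5 to 52.8 RPKM in LPS libraries labelled Lcn2-/- and 49.0 to 55.3 RPKM in wild-type LPS libraries, against 66.8 to 75.8 RPKM in saline libraries labelled Lcn2-/- and 70.1 to 73.9 RPKM in wild-type saline libraries. Of 6 endothelial markers, 4 passed as lower and 1 as higher in each genotype. Their summed level was 42.9 to 53.2 RPKM in LPS libraries labelled Lcn2-/- and 44.6 to 50.7 RPKM in wild-type LPS libraries, against 57.6 to 69.9 RPKM in saline libraries labelled Lcn2-/- and 71.8 to 79.8 RPKM in wild-type saline libraries. All of these markers were expressed highly enough to be tested, and their part in the channel results was not tested.

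**Figure D2:**
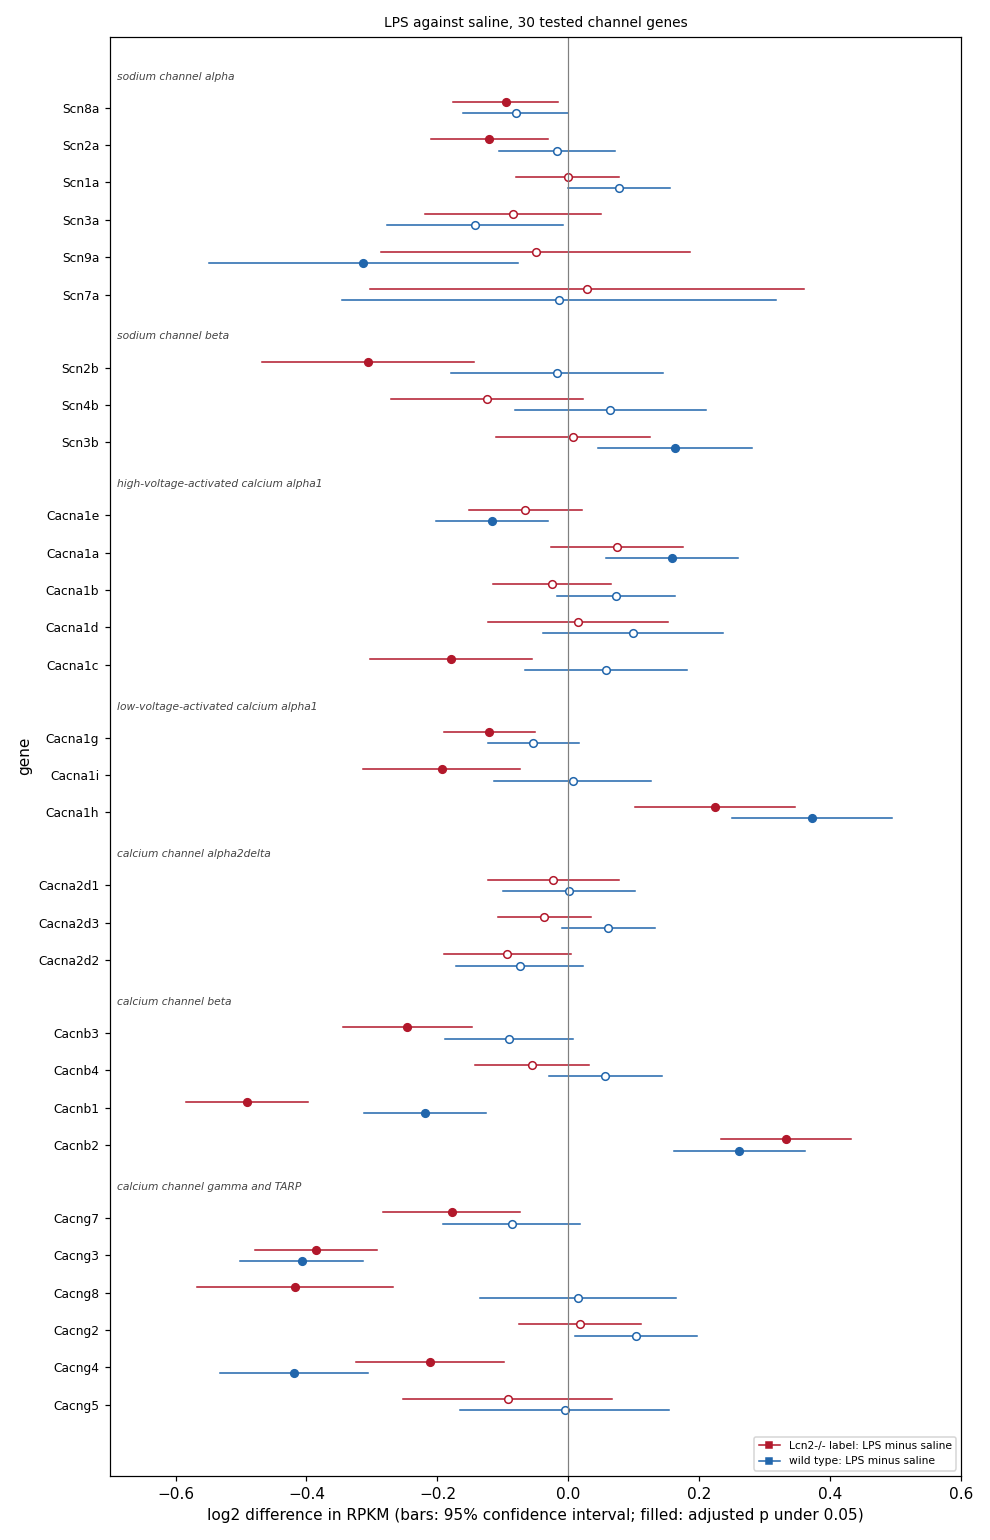
Log2 difference in RPKM after LPS against saline for 30 of the tested channel genes, in libraries labelled Lcn2-/- (red, upper of each pair) and in wild-type libraries (blue), with 95% confidence intervals; filled points passed at an adjusted p under 0.05. Every estimate lies between -0.49 and 0.37, and Cacna1h and Cacnb2 lie right of 0 while Cacnb1, Cacng3 and Cacng4 lie left of it in both genotypes.

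Among the sodium channel alpha subunits, 2 of 7 tested genes fell under the Lcn2-/- label and 1 of 7 fell in wild type. Scn2a (chr2:65620771-65767447), the subunit of the proximal axon initial segment of excitatory neurons, had 20.5, 18.6, 19.1 and 19.3 RPKM in LPS libraries labelled Lcn2-/-, against 21.0, 20.9, 20.1 and 22.3 RPKM in saline libraries with that label. The groups overlapped, and the log2 difference of -0.12 (SE 0.042, limma adjusted p = 0.0265) lost its call without LPS replicate 2, 3 or 4 or saline replicate 4, and when only these 2 groups were fitted. Scn8a (chr15:100869858-101045938) had 26.7, 24.5, 25.3 and 26.2 RPKM in LPS libraries labelled Lcn2-/-, against 26.7, 26.9, 26.7 and 29.5 RPKM in saline libraries with that label. Its difference of -0.10 (SE 0.038, limma adjusted p = 0.0461) likewise overlapped between groups, and it lost its call without any of LPS replicates 2, 3 and 4 or saline replicates 2 and 4, when only these 2 groups were fitted, and when trends with GC content and gene length were removed. Scn9a, best known from pain-sensing neurons of the periphery, is a low-level gene here with 0.644, 0.688, 0.616 and 0.673 RPKM in wild-type LPS libraries, against 0.719, 0.873, 0.816 and 0.855 RPKM in wild-type saline libraries. Every LPS value lay below every saline value, with a log2 difference of -0.31 (SE 0.11, limma adjusted p = 0.0498); the call was lost with GC and length trends removed, with median centring, and on leaving out any wild-type library except saline replicate 1. Scn1a, the main alpha subunit of parvalbumin interneurons, had 15.3, 15.7, 15.3 and 15.2 RPKM in LPS libraries labelled Lcn2-/-, 16.5, 17.6, 16.3 and 15.8 RPKM in wild-type LPS libraries, 15.6, 14.9, 15.2 and 15.9 RPKM in saline libraries labelled Lcn2-/-, and 15.8, 16.2, 14.9 and 15.8 RPKM in wild-type saline libraries. Its groups overlapped after LPS against saline, with log2 differences of 0.00 (95% interval -0.08 to 0.08) under the Lcn2-/- label and 0.08 (0.00 to 0.16) in wild type. Scn3a and, at about 0.5 RPKM, the sodium-sensing Scn7a did not pass either, with log2 differences of -0.08 and 0.03 under the Lcn2-/- label and -0.14 and -0.01 in wild type.

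Among the sodium channel beta subunits, Scn2b fell under the Lcn2-/- label and Scn3b rose in wild type. Scn2b (chr9:45117782-45130070), which is joined to the alpha subunit by a disulfide bond, had 36.2, 31.7, 34.2 and 33.9 RPKM in LPS libraries labelled Lcn2-/-, against 40.9, 39.0, 37.8 and 51.5 RPKM in saline libraries with that label. The groups did not overlap, but the value of 51.5 RPKM belongs to the saline library that stood apart. The log2 difference was -0.31 (SE 0.076, limma adjusted p = 0.00374) with that library and -0.21 (limma adjusted p = 0.00199) without it. In wild type Scn2b had 37.1, 36.3, 40.3 and 36.9 RPKM after LPS, against 40.1, 38.2, 37.8 and 36.3 RPKM after saline, which overlapped (log2 difference -0.02, 95% interval -0.18 to 0.14). Scn3b had 15.2, 14.9, 15.6 and 16.1 RPKM in wild-type LPS libraries, against 14.5, 13.9, 13.6 and 13.2 RPKM in wild-type saline libraries. These did not overlap, with a log2 difference of 0.16 (SE 0.055, limma adjusted p = 0.0417), and the call was lost without LPS replicate 1, 3 or 4 or saline replicate 2, 3 or 4.

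The high-voltage-activated alpha1 genes showed small differences: Cacna1c was lower under the Lcn2-/- label, and in wild type Cacna1a was higher and Cacna1e lower. Cacna1c, the L-type pore of neurons and cardiac and smooth muscle, had 4.12, 4.23, 4.17 and 4.35 RPKM in LPS libraries labelled Lcn2-/-, against 4.43, 4.57, 4.73 and 5.41 RPKM in saline libraries with that label. The groups did not overlap (log2 difference -0.18, SE 0.058, limma adjusted p = 0.0190), but the value of 5.41 RPKM belongs to the saline library that stood apart. The call was kept with each of the 8 libraries left out. It was lost when only these 2 groups were fitted or when GC and length trends were removed. Vascular smooth muscle and pericyte markers fell as well: 4 of 6 passed as lower, and their summed level was 42.1 to 49.1 RPKM in LPS libraries labelled Lcn2-/-, against 51.3 to 58.8 RPKM in saline libraries with that label, with none of the 6 below 0.5 RPKM. In wild type these markers were lower too, with 4 of 6 passing as lower and 1 as higher and sums of 44.2 to 50.2 RPKM after LPS against 57.7 to 61.4 RPKM after saline, while Cacna1c did not pass there (log2 difference 0.06, limma adjusted p = 0.539). The part of these markers in the Cacna1c result was not tested. Cacna1a, the P/Q-type pore of presynaptic terminals and Purkinje cells, had 10.7, 11.3, 9.81 and 10.6 RPKM in wild-type LPS libraries, against 9.81, 9.77, 8.97 and 9.48 RPKM in wild-type saline libraries. The ranges touched, and the log2 difference of 0.16 (SE 0.047, limma adjusted p = 0.0221) lost its call without LPS replicate 1, 2 or 4 or saline replicate 3. Cacna1e, the R-type pore, had 11.8, 11.9, 12.2 and 12.4 RPKM in wild-type LPS libraries, against 13.6, 13.0, 12.9 and 12.8 RPKM in wild-type saline libraries. These did not overlap, yet its log2 difference of -0.12 (SE 0.041, limma adjusted p = 0.0456) lost its call on leaving out any of the 8 wild-type libraries and with GC and length trends removed. Cacna1b, the N-type pore, did not pass, with means of 8.52 ± 0.40 RPKM after LPS and 8.66 ± 0.14 RPKM after saline under the Lcn2-/- label, and 9.07 ± 0.35 RPKM after LPS and 8.62 ± 0.36 RPKM after saline in wild type (SD, n = 4 each). Cacna1d, the other L-type pore of neurons, had log2 differences of 0.01 under the Lcn2-/- label and 0.10 in wild type, without passing.

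The low-voltage-activated, T-type genes support burst firing and low-threshold spikes, and they moved in different directions. Cacna1h (chr17:25374285-25433783) had 4.77, 5.27, 4.79 and 5.10 RPKM in LPS libraries labelled Lcn2-/-, against 4.21, 4.64, 4.20 and 4.02 RPKM in saline libraries with that label. It had 5.63, 5.45, 4.79 and 5.29 RPKM in wild-type LPS libraries, against 4.24, 4.07, 3.93 and 4.09 RPKM in wild-type saline libraries. All LPS values lay above all saline values of the same genotype. The log2 difference was 0.22 (SE 0.057, limma adjusted p = 0.00480) under the Lcn2-/- label and 0.37 (SE 0.057, limma adjusted p = 0.000143), a rise of 29.4%, in wild type. Cacna1h made up 25.1% of the summed T-type RPKM in LPS libraries labelled Lcn2-/- and 25.8% in wild-type LPS libraries, against 20.5% in saline libraries labelled Lcn2-/- and 20.9% in wild-type saline libraries. Cacna1g, prominent in thalamic relay neurons, had 8.09, 8.14, 8.13 and 8.01 RPKM in LPS libraries labelled Lcn2-/-, all below the 8.69, 9.05, 8.74 and 8.71 RPKM of saline libraries with that label (log2 difference -0.12, SE 0.033, limma adjusted p = 0.00644). Cacna1i, found in the thalamic reticular nucleus, had 7.19, 6.71, 6.49 and 6.55 RPKM in LPS libraries labelled Lcn2-/-, overlapping the 7.41, 7.63, 7.11 and 8.72 RPKM of saline libraries with that label (log2 difference -0.19, SE 0.056, limma adjusted p = 0.0104). Both of these calls were lost when GC and length trends were removed, and the Cacna1i call also when only these 2 groups were fitted. The Cacna1i value of 8.72 RPKM belongs to the saline library that stood apart. In wild type neither gene passed, with log2 differences of -0.05 (95% interval -0.12 to 0.02) for Cacna1g and 0.01 (-0.11 to 0.13) for Cacna1i. Of 6 thalamic markers, 2 rose and 0 fell under the Lcn2-/- label. Their sums there were 39.0 to 44.9 RPKM after LPS against 34.7 to 38.4 RPKM after saline. In wild type 2 rose and 1 fell, with sums of 38.7 to 45.0 RPKM after LPS against 38.1 to 40.3 RPKM after saline. The part of these markers in the T-type results was not tested.

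None of the 3 tested alpha2delta genes passed limma's test in either genotype, and 0 of 3 had an unadjusted p under 0.05. Cacna2d1, a binding site of gabapentin, was the most abundant. It had 25.2, 22.6, 23.8 and 24.9 RPKM in LPS libraries labelled Lcn2-/-, 25.1, 23.3, 25.4 and 24.2 RPKM in wild-type LPS libraries, 25.1, 24.4, 24.7 and 23.8 RPKM in saline libraries labelled Lcn2-/-, and 26.9, 24.3, 23.1 and 23.7 RPKM in wild-type saline libraries. All 4 groups overlapped, and the 95% interval of its log2 difference was -0.12 to 0.08 under the Lcn2-/- label and -0.10 to 0.10 in wild type. Cacna2d3 lay between 15.6 and 17.5 RPKM and Cacna2d2 between 6.53 and 8.14 RPKM over the 16 libraries.

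The calcium channel beta subunits bind the alpha1 pore from the cytoplasm and set its surface expression and inactivation, and here 2 members of the family moved in opposite directions. Cacnb1 (chr11:98001508-98023034) had 10.7, 9.88, 10.1 and 10.3 RPKM in LPS libraries labelled Lcn2-/-, against 13.9, 14.1, 14.8 and 14.8 RPKM in saline libraries with that label. Wild-type libraries had 11.96, 10.8, 11.3 and 10.8 RPKM after LPS, against 13.3, 12.6, 13.7 and 12.5 RPKM after saline. LPS and saline values did not overlap in either genotype, and the wild-type gap was the narrower. The log2 difference was -0.49 (SE 0.044, limma adjusted p = 2.37e-07) under the Lcn2-/- label, where the level fell by 28.9%, and -0.22 (SE 0.044, limma adjusted p = 0.00138) in wild type.

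Cacnb2 (chr2:14603088-14987908), the main beta subunit of heart and also a neuronal gene, had 4.84, 4.96, 4.41 and 4.70 RPKM in LPS libraries labelled Lcn2-/-, against 3.78, 3.70, 3.88 and 3.66 RPKM in saline libraries with that label. In wild type it had 4.41, 4.53, 4.42 and 4.69 RPKM after LPS, against 3.90, 3.78, 3.53 and 3.85 RPKM after saline. All 8 LPS values lay above all 8 saline values. Its level differed by a log2 of 0.33 (SE 0.047, limma adjusted p = 3.33e-05) under the Lcn2-/- label, a rise of 25.9%, and 0.26 (SE 0.047, limma adjusted p = 0.000567) in wild type. As a share of the summed RPKM of the 4 beta genes, Cacnb2 held 7.05% in LPS libraries labelled Lcn2-/- and 6.30% in wild-type LPS libraries, against 4.86% in saline libraries labelled Lcn2-/- and 5.08% in wild-type saline libraries. Cacnb1 held 15.3% and 15.6% in the LPS libraries of those genotypes, against 18.7% and 17.6% in the saline libraries.

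Cacnb3, the most abundant beta subunit, had 35.4, 31.8, 33.0 and 32.8 RPKM in LPS libraries labelled Lcn2-/-, against 37.9, 40.6, 39.4 and 39.8 RPKM in saline libraries with that label. These did not overlap, with a log2 difference of -0.25 (SE 0.046, limma adjusted p = 0.000442). In wild type the values were 36.4, 32.6, 34.9 and 35.5 RPKM after LPS, against 40.4, 36.6, 36.3 and 35.2 RPKM after saline, which overlapped (log2 difference -0.09, 95% interval -0.19 to 0.01). Cacnb4, the gene mutated in the lethargic mouse, did not pass for LPS in either genotype. It had 19.7, 18.3, 18.9 and 18.5 RPKM in LPS libraries labelled Lcn2-/-, 20.7, 21.6, 21.2 and 20.7 RPKM in wild-type LPS libraries, 20.1, 19.3, 19.4 and 19.6 RPKM in saline libraries labelled Lcn2-/-, and 22.0, 20.6, 19.0 and 19.5 RPKM in wild-type saline libraries. Summed over the 4 genes, the beta family stood at 67.1 ± 2.5 RPKM in LPS libraries labelled Lcn2-/- and 71.6 ± 1.6 RPKM in wild-type LPS libraries, against 77.2 ± 1.0 RPKM in saline libraries labelled Lcn2-/- and 74.2 ± 3.7 RPKM in wild-type saline libraries (SD, n = 4 each).

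The promoter windows of Cacnb1 and Cacnb2 are shown because these family members changed in opposite directions in both genotypes. Each window runs from 250 bases before to 50 bases after a RefSeq transcription start on GRCm38.p6, the patch release of the mm10 build, and is printed along the gene's own strand. Capitals mark matches on either strand to the letters searched: TTCAGCA and GGACAGC (stretches of the RE1 site bound by the neuronal repressor REST), TGACGT (the core of a cyclic AMP response element) and AGAACA (an arm of a glucocorticoid response element).
Cacnb1, minus strand, chr11:98022578-98022877: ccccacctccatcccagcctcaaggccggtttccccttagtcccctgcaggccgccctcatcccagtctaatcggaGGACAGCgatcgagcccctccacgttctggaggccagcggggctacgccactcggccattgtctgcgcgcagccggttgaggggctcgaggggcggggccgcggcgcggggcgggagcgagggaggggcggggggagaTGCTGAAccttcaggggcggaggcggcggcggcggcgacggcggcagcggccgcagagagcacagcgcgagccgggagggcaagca
Cacnb2, upstream start, plus strand, chr2:14604056-14604355: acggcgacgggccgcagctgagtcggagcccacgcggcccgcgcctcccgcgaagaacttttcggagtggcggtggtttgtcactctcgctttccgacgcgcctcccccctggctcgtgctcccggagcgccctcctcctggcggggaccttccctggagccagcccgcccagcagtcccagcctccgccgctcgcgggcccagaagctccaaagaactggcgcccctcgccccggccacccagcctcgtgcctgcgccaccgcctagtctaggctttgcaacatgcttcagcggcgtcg
Cacnb2, downstream start, plus strand, chr2:14823842-14824141: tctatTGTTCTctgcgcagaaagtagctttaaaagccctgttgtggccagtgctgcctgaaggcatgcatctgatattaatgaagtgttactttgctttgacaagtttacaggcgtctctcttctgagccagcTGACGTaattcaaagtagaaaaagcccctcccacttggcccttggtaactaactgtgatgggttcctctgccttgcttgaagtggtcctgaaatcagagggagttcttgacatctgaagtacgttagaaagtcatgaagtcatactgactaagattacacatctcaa

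The table holds another Cacnb1 window, at a start further downstream (chr11:98018323-98018622, 59.3% GC), which is not shown and holds none of the letters searched. The Cacnb1 window shown is GC-rich (73.7%) and holds both RE1 stretches, GGACAGC as printed and TTCAGCA as its reverse complement, but far apart. The upstream Cacnb2 window (71.7% GC) holds none of these letters, while the downstream window (44.0% GC) holds a TGACGT and, on the other strand, an AGAACA. Over the 41 windows matched to 30 of the 40 genes, TTCAGCA occurred in 7.32% and GGACAGC in 4.88%, against 4.70% and 6.56% of all 32851 windows in the table. TGACGT occurred in 2.44% and AGAACA in 17.1% of the channel gene windows, against 7.51% and 19.0% of all windows. The E-box CACGTG was in 0 of the 41 windows and in 7.15% of all. These matches describe letters only and were not tested for binding.

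**Figure D3:**
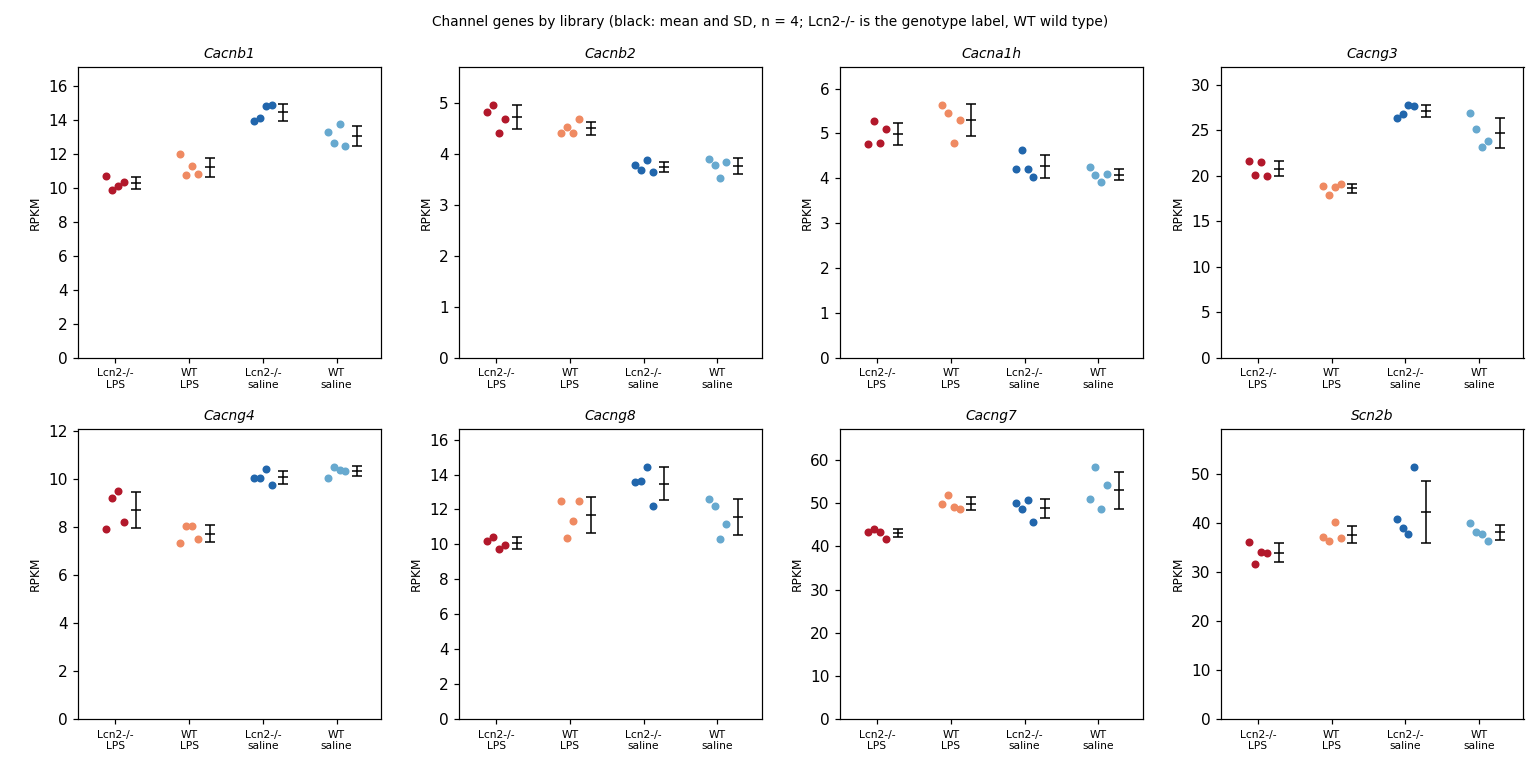
RPKM in each library for 8 channel genes (points; black marks, mean and SD of 4 libraries), with LPS libraries at the left and saline libraries at the right of each panel and each axis starting at 0. Cacnb1, Cacng3 and Cacng4 sit lower and Cacnb2 and Cacna1h higher after LPS in both genotypes, while Cacng8 under the Lcn2-/- label sits at 9.71 to 10.4 RPKM after LPS against 12.2 to 14.4 RPKM after saline.

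In the gamma family, 4 of 6 tested genes fell under the Lcn2-/- label and 2 of 6 fell in wild type. Cacng3 (chr7:122670492-122769393), a type I TARP of forebrain excitatory neurons, had 21.6, 20.1, 21.5 and 20.0 RPKM in LPS libraries labelled Lcn2-/-, against 26.4, 26.8, 27.8 and 27.7 RPKM in saline libraries with that label. Wild-type values were 18.8, 17.9, 18.8 and 19.1 RPKM after LPS, against 26.9, 25.2, 23.1 and 23.9 RPKM after saline. LPS and saline values were well separated in both genotypes. Log2 differences were -0.39 (SE 0.044, limma adjusted p = 3.82e-06) under the Lcn2-/- label and -0.41 (SE 0.044, limma adjusted p = 3.33e-06) in wild type, and the test of the difference between genotypes gave 0.02 (95% interval -0.11 to 0.15).

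Cacng4 (chr11:107732357-107794557), a type I TARP found in neurons and in glia, had 7.93, 9.21, 9.51 and 8.19 RPKM in LPS libraries labelled Lcn2-/-, against 10.04, 10.1, 10.4 and 9.74 RPKM in saline libraries with that label. In wild type it had 7.33, 8.02, 8.02 and 7.49 RPKM after LPS, against 10.02, 10.5, 10.4 and 10.3 RPKM after saline. No LPS value reached a saline value of the same genotype. The log2 difference was -0.21 (SE 0.053, limma adjusted p = 0.00414) under the Lcn2-/- label and -0.42 (SE 0.053, limma adjusted p = 2e-05), a level that fell by 25.2%, in wild type. Oligodendrocyte precursor markers also moved: 1 of 5 fell under the Lcn2-/- label (Gpr17, log2 difference -1.94), and in wild type 3 of 5 fell (Gpr17 -0.88, Cspg4 -0.63 and Olig2 -0.35) while Pdgfra rose by 0.33. None of the 5 was below 0.5 RPKM. Their summed level overlapped between groups, at 72.8 to 90.1 RPKM in LPS libraries labelled Lcn2-/- and 69.8 to 78.9 RPKM in wild-type LPS libraries, against 68.5 to 81.6 RPKM in saline libraries labelled Lcn2-/- and 70.4 to 83.0 RPKM in wild-type saline libraries. Their part in the Cacng4 result was not tested.

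Cacng8 (chr7:3390683-3415648), the main TARP of the hippocampus, fell under the Lcn2-/- label but not in wild type. It had 10.2, 10.4, 9.71 and 9.96 RPKM in LPS libraries labelled Lcn2-/-, against 13.6, 13.6, 14.4 and 12.2 RPKM in saline libraries with that label, with no overlap. In wild type it had 12.5, 10.4, 11.3 and 12.5 RPKM after LPS, against 12.6, 12.2, 10.3 and 11.2 RPKM after saline, which lay across the same range. The log2 difference was -0.42 (SE 0.070, limma adjusted p = 0.000179) under the Lcn2-/- label, where the level fell by 25.1%, and 0.02 (95% interval -0.13 to 0.16) in wild type. Cacng7, the most abundant family member, had 43.4, 44.1, 43.2 and 41.7 RPKM in LPS libraries labelled Lcn2-/-, all below the 50.1, 48.7, 50.7 and 45.7 RPKM of saline libraries with that label (log2 difference -0.18, SE 0.049, limma adjusted p = 0.00747). In wild type its 49.8, 52.0, 49.1 and 48.6 RPKM after LPS overlapped the 50.9, 58.5, 48.6 and 54.3 RPKM after saline. Cacng2 (stargazin), whose loss causes the stargazer mouse's ataxia and seizures, had 11.5, 11.9, 11.7 and 10.9 RPKM in LPS libraries labelled Lcn2-/-, against 10.7, 11.3, 11.1 and 12.3 RPKM in saline libraries with that label, and it did not pass. In wild type its 11.4, 12.4, 11.7 and 11.7 RPKM after LPS lay above the 10.9, 11.2, 11.01 and 10.7 RPKM after saline, without passing either (log2 difference 0.10, 95% interval 0.01 to 0.20, limma adjusted p = 0.100). Summed over the 8 genes, the family stood at 99.7 ± 2.4 RPKM in LPS libraries labelled Lcn2-/- and 105.4 ± 0.58 RPKM in wild-type LPS libraries, against 116.7 ± 2.4 RPKM in saline libraries labelled Lcn2-/- and 116.5 ± 5.7 RPKM in wild-type saline libraries (SD, n = 4 each).

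**Figure D4:**
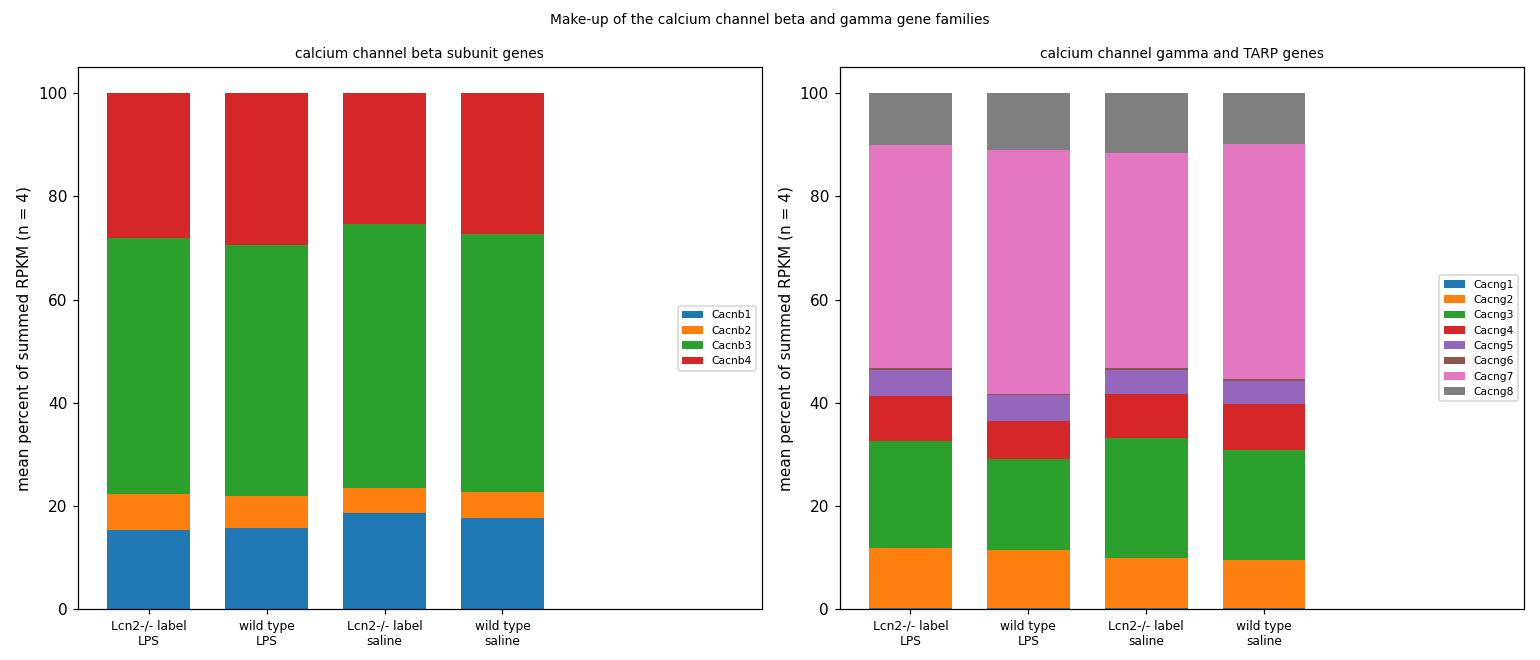
Mean share (percent, n = 4) of each gene in the summed RPKM of the calcium channel beta family (left) and the gamma and TARP family (right) in each group. Cacnb2 takes 7.05% and 6.30% of the beta family in the LPS libraries (labelled Lcn2-/-, then wild type) against 4.86% and 5.08% in the saline libraries, and Cacng3 takes 20.9% and 17.7% of the gamma family against 23.3% and 21.3%.

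Some markers of striatal projection neurons also fell after LPS under the Lcn2-/- label. There 4 of 8 passed as lower (among them Drd1 with -0.71, Adora2a with -0.62 and Drd2 with -0.60 in log2 difference), while in wild type Adora2a was lower by a log2 difference of -0.67 and Ppp1r1b higher by 0.26. Their summed level was 278 to 303 RPKM in LPS libraries labelled Lcn2-/- and 267 to 303 RPKM in wild-type LPS libraries, against 301 to 330.0 RPKM in saline libraries labelled Lcn2-/- and 291 to 310.0 RPKM in wild-type saline libraries. Of 7 Purkinje and cerebellar markers, 5 rose and 1 fell under the Lcn2-/- label, with sums of 262 to 290.4 RPKM after LPS against 244 to 256 RPKM after saline, and none of the 7 passed in wild type (238 to 261 RPKM after LPS, 247 to 262 RPKM after saline). No gene of either list was below 0.5 RPKM, and the part of these markers in the channel results was not tested.

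No channel gene passed limma's test for the genotype label after saline: the count was 0 of 32, beside 0.0461% of all genes tested (0.0346% higher and 0.0115% lower). The groups did not overlap for 4 of 32, beside 5.19% of all genes tested. The median SE here was 0.048 for the channel genes and 0.077 for all genes tested. At an unadjusted p under 0.05 limma gave 10 of 32 channel genes (31.2%), beside 1897 of the 17349 genes tested (10.9%), and every alternative processing also gave 0 calls. Cacnb1 had an unadjusted p under that limit, with 13.9 to 14.8 RPKM in saline libraries labelled Lcn2-/- against 12.5 to 13.7 RPKM in wild-type saline libraries (log2 difference 0.15, 95% interval 0.05 to 0.24, limma adjusted p = 0.353). After LPS 4 of 32 passed, which is 12.5% against 15.8% of all genes tested, of which 7.04% were higher and 8.74% lower. The groups did not overlap for 7 of 32, beside 28.0% of all genes tested. Cacng7 was lower under the Lcn2-/- label, with 41.7 to 44.1 RPKM against 48.6 to 52.0 RPKM in wild-type LPS libraries and no overlap (log2 difference -0.21, SE 0.049, limma adjusted p = 0.0104), and it kept its call under every alternative. Cacnb4 was lower too, with 18.3 to 19.7 RPKM against 20.7 to 21.6 RPKM in wild-type LPS libraries (log2 difference -0.16, SE 0.041, limma adjusted p = 0.0158), and lost its call without LPS replicate 2 labelled Lcn2-/-. Cacng3 and Cacng4 were higher under the Lcn2-/- label, by log2 differences of 0.16 (limma adjusted p = 0.0253) and 0.17 (limma adjusted p = 0.0399), and neither passed once GC and length trends were removed. Only 2 genes passed without LPS replicate 3 labelled Lcn2-/- or without wild-type LPS replicate 3.

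The LPS difference itself depended on the genotype label for 2 of 32 genes, Cacng8 and Cacnb1, which is 6.25% against 8.82% of all genes tested; both terms were negative, as were 4.92% of all. The interaction (the LPS difference under the Lcn2-/- label minus that in wild type) was -0.43 (95% interval -0.64 to -0.22, limma adjusted p = 0.0184) for Cacng8 and -0.27 (95% interval -0.40 to -0.14, limma adjusted p = 0.0176) for Cacnb1. Both kept their calls under every alternative, saline replicate 4 labelled Lcn2-/- left out included. The Cacng8 term combined a lower level under the Lcn2-/- label after LPS (log2 difference -0.21, limma adjusted p = 0.0555) with a higher one after saline (0.22, limma adjusted p = 0.383), neither of which passed. For the other 30 genes the difference between genotypes did not pass, among them Cacng4 (0.21, limma adjusted p = 0.0913), Cacna1c (-0.24, limma adjusted p = 0.0804) and Scn2b (-0.29, limma adjusted p = 0.0979).

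Several channel genes lie side by side. Cacng7 and Cacng8 lie 22.5 kb apart on chromosome 7, and the interaction passed for Cacng8, while for Cacng7 it was -0.09 (95% interval -0.24 to 0.06). Cacng4 and Cacng5 lie 80.0 kb apart on chromosome 11, and Cacng5, a type II TARP, had log2 differences of -0.09 (95% interval -0.25 to 0.07) under the Lcn2-/- label and -0.01 (-0.16 to 0.15) in wild type. Scn2b and Scn4b lie 8.32 kb apart on chromosome 9, and Scn4b, the subunit linked to resurgent sodium current, did not pass (log2 difference -0.12 under the Lcn2-/- label, 95% interval -0.27 to 0.02). Lcn2 lies on chromosome 2, and the nearest channel gene, Cacna1b, is 7.62 Mb away; its log2 difference between genotype labels after saline was 0.01 (95% interval -0.08 to 0.10). The tested channel genes are long, with a median exonic length of 8864 bases against 3744 bases for the tested genes with annotation. The median GC content of the tested channel genes was 51.5%, against 49.8% for the tested genes with annotation.

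The genes below the test threshold could not be judged against the rest, because the low end of the distribution shifted with LPS: the 25th percentile of log2 RPKM ran from -5.78 to -4.58 in LPS libraries and from -4.12 to -2.73 in saline libraries. Scn10a went the other way from that shift. It had 0.238, 0.160, 0.130 and 0.228 RPKM in LPS libraries labelled Lcn2-/-, against 0.0710, 0.0527, 0.0619 and 0.139 RPKM in saline libraries with that label. In wild type it had 0.239, 0.285, 0.155 and 0.240 RPKM after LPS, against 0.0754, 0.0735, 0.0537 and 0.0671 RPKM after saline, with no overlap in wild type. Fitted without the threshold its log2 difference was 1.28 (limma adjusted p = 0.00461) under the Lcn2-/- label and 1.74 (limma adjusted p = 0.000593) in wild type, at levels where the reads behind a value are unknown. Cacng6 and Cacna1f in wild type, and Scn4a and Scn11a under the Lcn2-/- label, had lower fitted values that passed, in the direction of the shift. Cacna1s, Cacna2d4 and Cacng1 did not pass in either genotype without the threshold.

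Known partners of the channels also changed in both directions. Of 15 sodium channel partners (axon initial segment anchors, adhesion molecules and fibroblast growth factor homologous factors), 1 rose and 5 fell under the Lcn2-/- label, and 1 rose and 3 fell in wild type. Nedd4l, a ubiquitin ligase that removes sodium channels from the membrane, rose in both, with log2 differences of 0.18 (limma adjusted p = 0.0107) under the Lcn2-/- label and 0.29 (limma adjusted p = 0.000585) in wild type. Fgf11, an intracellular channel-binding factor, fell in both, by 0.34 (limma adjusted p = 0.0111) and 0.31 (limma adjusted p = 0.0352) on the log2 scale. It had 6.83, 7.57, 7.26 and 7.40 RPKM in LPS libraries labelled Lcn2-/- and 7.06, 7.13, 8.23 and 6.91 RPKM in wild-type LPS libraries, against 8.46, 7.91, 8.83 and 12.2 RPKM in saline libraries labelled Lcn2-/- and 8.70, 9.15, 8.77 and 9.59 RPKM in wild-type saline libraries. The Fgf11 value of 12.2 RPKM belongs to the saline library that stood apart, and without it the log2 difference under the Lcn2-/- label was -0.21 (limma adjusted p = 0.00960). In wild type the Fgf11 call was lost without LPS replicate 1, 2 or 4 or saline replicate 2, 3 or 4.

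Of 16 tested calcium channel partners, 3 rose and 4 fell under the Lcn2-/- label, and 0 rose and 2 fell in wild type. Gem and Rrad are small GTPases of the RGK family, which bind the beta subunit and inhibit high-voltage-activated calcium channels. Rrad had 1.55, 1.72, 1.57 and 1.67 RPKM in LPS libraries labelled Lcn2-/-, above the 1.29, 1.27, 1.30 and 1.42 RPKM of saline libraries with that label. In wild type it had 0.821, 0.937, 1.17 and 1.22 RPKM after LPS, against 1.41, 1.20, 1.48 and 1.55 RPKM after saline. Its log2 difference was 0.30 (limma adjusted p = 0.0404) under the Lcn2-/- label and -0.46 (limma adjusted p = 0.00747) in wild type, and the interaction of 0.77 passed (limma adjusted p = 0.0136). The Rrad call under the Lcn2-/- label was lost without LPS replicate 2, 3 or 4 or saline replicate 1, 2 or 3. Gem had 1.10, 1.23, 1.54 and 0.863 RPKM in LPS libraries labelled Lcn2-/-, against 0.618, 0.677, 0.574 and 0.840 RPKM in saline libraries with that label (log2 difference 0.79, limma adjusted p = 0.00261). In wild type Gem had 0.630, 0.660, 0.872 and 0.515 RPKM after LPS, against 0.578, 0.703, 0.654 and 0.587 RPKM after saline, and did not pass. Rimbp2, which tethers calcium channels at the presynaptic active zone, had 3.12, 2.67, 3.25 and 3.25 RPKM in LPS libraries labelled Lcn2-/-, against 4.53, 4.58, 5.06 and 6.36 RPKM in saline libraries with that label (log2 difference -0.73, limma adjusted p = 0.000145). The value of 6.36 RPKM belongs to the saline library that stood apart. Without that library the log2 difference was -0.62 (limma adjusted p = 0.000216). In wild type Rimbp2 had 4.10, 3.41, 3.73 and 3.49 RPKM after LPS, against 4.89, 4.62, 3.44 and 3.86 RPKM after saline. These groups overlapped, and Rimbp2 did not pass there. Stac, an adaptor of L-type channels, fell in both, with log2 differences of -0.52 (limma adjusted p = 0.000301) under the Lcn2-/- label and -0.49 (limma adjusted p = 0.000961) in wild type. Of the 4 partners that fell under the Lcn2-/- label, Tspoap1 and Rims1 lost their calls without saline replicate 4. Tspoap1 also lost its call without LPS replicate 1, 2 or 3 or saline replicate 2, and Rims1 without LPS replicate 2. Cabp1, 1 of the 3 that rose there, lost its call on leaving out LPS replicate 1, 2, 3 or 4. Its log2 difference was 0.30 with all libraries and 0.13, still called, without saline replicate 4.

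Of 11 AMPA receptor subunits and auxiliary proteins outside the TARP family, 5 fell and 0 rose under the Lcn2-/- label, and 2 rose and 2 fell in wild type. Gsg1l, 1 of the 5 under the Lcn2-/- label, lost its call there without LPS replicate 2 or 3 or saline replicate 4. Shisa9 fell in both, with log2 differences of -0.34 (limma adjusted p = 0.000570) under the Lcn2-/- label and -0.23 (limma adjusted p = 0.0174) in wild type, where the call was lost without LPS replicate 2 or saline replicate 1. Cnih2, a cornichon protein that binds AMPA receptors beside TARPs, fell by 0.31 on the log2 scale under the Lcn2-/- label (limma adjusted p = 0.00214). In wild type Shisa7 rose by 0.26 (limma adjusted p = 0.0260), a call lost without LPS replicate 1 or 4 or saline replicate 3 or 4, and the receptor subunit Gria1 by 0.17 (limma adjusted p = 0.00208). Of the sodium leak channel complex, 3 of 5 listed genes were found in the table by symbol, and none of the 3 was called for LPS in either genotype.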

How the data were processed

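Hemi-brain RNA was analysed in 16 libraries, 4 for each genotype label and injection. The labels give no replicate numbers, so those used here follow the order in which the samples were listed. The authors deposited log2 RPKM after conditional quantile normalization, per the file headers and name; despite a GeneCount suffix on each column the values are not counts. The build is mm10, per the submitters' processing notes; aligner, counter and annotation were not given in the sources used here, and depth is unknown. There were 0 unused sample columns. Symbols and positions came from GENCODE vM21 (32695 of 33289 IDs matched), promoters from RefSeq (GRCm38.p6).

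Genes with at least 0.5 RPKM (log2 of -1) in at least 3 samples were fitted with limma 3.58.1 (R 4.3.3): group means over all 16 samples, trended moderation, Benjamini-Hochberg adjustment over 17349 genes, two-sided, called at an adjusted p under 0.05. The fit was tested on simulated data with changes of 0.5, 1 and 2 on the log2 scale. At 0.5 it recovered 82.1% of changes for LPS in wild type and 73.1% under the Lcn2-/- label. It recovered 76.1% for the genotype label after saline, 59.7% after LPS and 43.3% for the interaction. Smaller changes, such as those of the tested channel genes, were not simulated. Named genes were, per role, up to 4 called members with the largest LPS difference, members called for genotype label or interaction at an absolute log2 difference of at least 0.5 (none), and the highest uncalled one, and per partner list up to 2 called genes per direction and LPS comparison. Other members named for genotype label or interaction, other partners, markers and low-level genes were chosen after their values were seen. Some genes are not reported here, though they stay in the fits and counts. Members and lists were chosen with earlier results of these data known. The labels do not say that replicates are separate animals, and the p-values cover only the variation among these samples, which may be technical. Alternatives were log2(RPKM + 0.5), no filter, only the 2 groups compared, removal of GC and length trends, median centring, and leaving out each library.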

Additional observations from a re-analysis of the deposited data

Results flagged for a closer look

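Among 128 gene and group sets of 4 libraries, 9 held a library far from the other 3, where chance flags about 1 in 20 sets. Of these 9 sets, 7 are given here, and 4 of them were in saline replicate 4 labelled Lcn2-/-: Cacna1a at 10.6 RPKM (others 9.97 to 10.04), Cacna1b at 8.46 RPKM (others 8.71 to 8.75), Scn8a at 29.5 RPKM (others 26.7 to 26.9) and Scn3b at 17.3 RPKM (others 14.3 to 14.5). In saline replicate 2 with that label Cacna1g was at 9.05 RPKM (others 8.69 to 8.74). In LPS libraries labelled Lcn2-/-, Scn1a was at 15.7 RPKM in replicate 2 (others 15.2 to 15.3). In wild-type saline replicate 1 Scn4b was at 26.6 RPKM (others 29.4 to 30.0).

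The LPS difference depended on the genotype label, by limma's interaction test, for Cacnb1 (-0.272 on the log2 scale) and Cacng8 (-0.432).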

How the results depend on the processing

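No channel gene reversed direction while called. The count of channel genes called kept within 1.5 times its value for LPS in either genotype under every processing alternative; with each library left out it ran from 12 to 14 under the Lcn2-/- label and from 5 to 8 in wild type. For the genotype label after LPS it ran from 2 to 4 and for the interaction from 2 to 3. The median over channel genes after LPS under the Lcn2-/- label was -0.049 with GC and length trends removed and -0.105 to -0.069 with each library left out; in wild type it ran from -0.014 to 0.031, and for the label after saline from 0.033 to 0.067. With those trends removed the called channel genes split into 3 higher and 8 lower under the Lcn2-/- label and 4 and 3 in wild type. Over all genes, the count without a filter was 13790 for LPS in wild type, 17808 under the Lcn2-/- label, 3 for the label after saline and 905 for the interaction. Fitting only the 2 groups compared gave 3 genes for the label after saline and 4393 after LPS. Leaving out each library gave 3 to 13 genes for the label after saline, 1532 to 2413 after LPS and 727 to 2267 for the interaction. The cause was not tested. No paired analysis was possible because the labels name no pairs of samples. Without counts, counting error is unknown and limits low-level genes most.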
